A study of Mus musculus with 32 samples.

Results

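The immunity-related GTPases (IRGs) are a family of interferon-inducible GTP-binding proteins of mouse cells, and 8 of its genes were followed here through the loss of *Trex1* in macrophages. The 8 genes were chosen by name: *Irgm1*, *Irgm2*, *Igtp*, *Gm12250*, *Ifi47*, *Tgtp1*, *Tgtp2* and *Iigp1*. All 8 were found among the 54281 gene identifiers, and all 8 passed the filter on low counts that left 15257 genes. Bone marrow-derived macrophages (BMDMs), differentiated with L929 supernatant, came from *Trex1* FL/FL R26 CreERT2 mice or *Trex1* WT/FL R26 CreERT2 mice. Every culture thus carried the tamoxifen-inducible Cre recombinase of the R26 locus and at least 1 loxP-flanked *Trex1* allele. They were left untreated or exposed to 2 µg/ml 4-hydroxytamoxifen (4-OHT) for 22 h, and RNA was sequenced 1, 2, 3 or 4 days after exposure ended, with 2 libraries for each of 16 groups. After 4-OHT, FL/FL cells lose both *Trex1* alleles, whereas WT/FL cells keep the wild type allele and can lose the flanked allele. The labels give no animal, age, sex, batch or replicate number, so p-values measure only the spread between these libraries, which may be technical.

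IRG proteins attack the membranes of vacuoles in which intracellular microbes and parasites live. In the usual division, *Irgm1*, *Irgm2* and *Igtp* encode regulators that sit on host membranes and hold the other members inactive, and *Iigp1*, *Tgtp1*, *Tgtp2*, *Gm12250* and *Ifi47* encode effectors, several of which load onto pathogen vacuoles. Transcription of the family in macrophages is raised by IFN-γ, whose signal reaches promoters at GAS elements, and by type I IFN, whose signal reaches them at ISRE elements.

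Sequence upstream of the transcription start is shown for 6 genes, because all members moved together in these libraries and these stretches hold matches to the GAS or ISRE motifs. Windows of 7 of the members were taken from the RefSeq promoter table (windows of GRCm38.p6). Each window of 250 bases before and 50 bases after the start was found unchanged at a single place on chromosome 11 of GRCm39. The 100 bases directly before the start follow 5′ to 3′ on the strand of the gene, in lower case, with matches to GAS (TTCNNNGAA) and to the ISRE core (GAAANNGAAA, on either strand) in capitals. The GRCm39 positions are chr11:48762248-48762347 on the minus strand for *Irgm1*, chr11:58105703-58105802 on the plus strand for *Irgm2*, chr11:58090282-58090381 on the plus strand for *Igtp*, chr11:58074569-58074668 on the plus strand for *Gm12250*, chr11:48883074-48883173 on the minus strand for *Tgtp1* and chr11:48955040-48955139 on the minus strand for *Tgtp2*.
Irgm1: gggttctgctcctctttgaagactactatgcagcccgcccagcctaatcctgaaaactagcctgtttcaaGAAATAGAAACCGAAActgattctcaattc
Irgm2: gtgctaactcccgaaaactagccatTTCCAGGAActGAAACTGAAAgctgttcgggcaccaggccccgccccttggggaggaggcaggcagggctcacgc
Igtp: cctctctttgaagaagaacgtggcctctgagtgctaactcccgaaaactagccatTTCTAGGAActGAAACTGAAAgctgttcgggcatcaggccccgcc
Gm12250: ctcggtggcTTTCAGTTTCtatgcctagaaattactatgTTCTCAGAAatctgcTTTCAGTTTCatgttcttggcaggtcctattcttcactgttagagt
Tgtp1: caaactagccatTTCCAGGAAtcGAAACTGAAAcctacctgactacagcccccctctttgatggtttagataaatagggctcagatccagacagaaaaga
Tgtp2: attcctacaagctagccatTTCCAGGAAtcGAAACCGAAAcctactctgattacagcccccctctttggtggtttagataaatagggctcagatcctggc

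The ISRE core was present in 6 of the 7 windows and GAS in 5, against 3.49% and 8.47% of all 27025 promoter windows. *Iigp1* was left out of this set of windows, so the counts for the members do not cover it. In *Irgm2*, *Igtp*, *Tgtp1* and *Tgtp2* the ISRE core started 2 bases after the end of the GAS match on the same strand. This exact arrangement occurred in 5 windows of the whole table, which is 0.0185%, and the fifth was that of *Gm12185*, a gene that shares sequence with *Tgtp1* and *Tgtp2*. Around this pair of motifs the printed stretches of *Irgm2* and *Igtp* are nearly the same, and so are those of *Tgtp1* and *Tgtp2*. These windows are therefore not independent cases of the arrangement. *Irgm1* held 2 overlapping ISRE cores and no GAS. *Gm12250* held a GAS between 2 antisense ISRE cores. The window of *Ifi47* held neither motif. These matches describe the letters of the windows, and binding was not measured. The RefSeq start used for *Gm12250* lay 3896 bases upstream of the first base of the GENCODE gene, and that of *Irgm2* lay 15359 bases inside its gene. Those of *Tgtp1*, *Irgm1* and *Igtp* lay 1926, 917 and 542 bases inside their genes. Only those of *Ifi47* and *Tgtp2* lay close to the GENCODE start, 2 bases inside and 6 bases upstream.

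**Figure D1:**
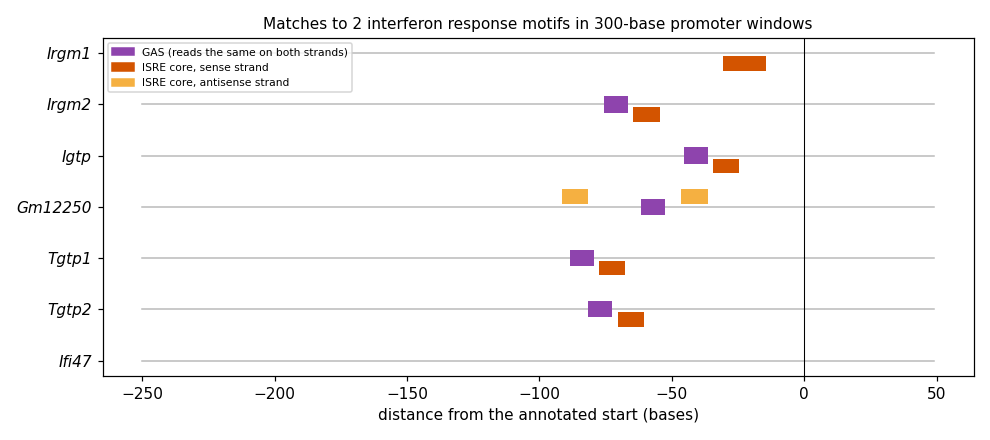
Matches to GAS (purple) and to the ISRE core (dark orange on the sense strand, light orange on the antisense strand) in the 300-base windows of 7 IRG genes, drawn by distance in bases from the annotated start. In *Irgm2*, *Igtp*, *Tgtp1* and *Tgtp2* a GAS is followed 2 bases later by an ISRE core, the 2 ISRE cores of *Irgm1* overlap and appear as a single block, and the window of *Ifi47* is empty.

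The libraries held 35120505 to 63760884 estimated counts (median 44841991), and library pairs of the same group correlated across genes, which are not independent, with Pearson's r of log2 CPM of 0.983 to 0.990. *Trex1* had 0 counts in the 4-OHT-treated FL/FL libraries of days 1, 3 and 4 and 14 and 9 counts on day 2, whereas the 4-OHT-treated WT/FL libraries held 758 to 3622 counts. In CPM (counts relative to the TMM-scaled library size), *Trex1* was lower in 4-OHT-treated than in untreated WT/FL libraries on each day. On day 1 it was at 15 and 12.2 against 32 and 28.6 CPM. On day 4 it was at 47.8 and 49 against 78.6 and 89.9 CPM. The 7 macrophage markers summed to 15024 to 47900 CPM over all libraries, with *Lyz2* alone at 11134 to 33994 CPM. Of the other cell types that can make IFN-γ, the NK cell genes *Ncr1* and *Prf1* and the T cell gene *Cd8a* were at 0 in every library and *Cd3e* held at most 1 count. The 5 T cell markers summed to at most 0.255 CPM on day 1 and to 29 to 52.9 CPM on day 3 over all cultures, nearly all of it from *Cd4*. The markers of neutrophils and progenitors summed to 3.19 to 13.8 CPM, of B cells to 1.31 to 6.58 CPM, of dendritic cells to 0.437 to 2.41 CPM and of fibroblasts to 0.104 to 2.97 CPM. The part of these markers in the results was not tested. *Ifng* itself had 0 counts in all 32 libraries. In such bulk libraries, a larger share of cells that express a gene and more RNA per cell cannot be told apart.

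On day 1 the 8 genes were low in every culture, and from day 2 they were higher in the 4-OHT-treated FL/FL cells than in all other cultures. The summed level of the 8 genes was 110 ± 8.1 CPM (SD, n = 2) on day 1 in 4-OHT-treated FL/FL cells, and it stood at 2181 ± 30.5 CPM on day 2, 2254 ± 132 CPM on day 3 and 2323 ± 76.6 CPM on day 4. In 4-OHT-treated WT/FL cells the sum was 94.6 ± 2.26, 894 ± 78.9, 1132 ± 110 and 505 ± 69.5 CPM on days 1 to 4. The untreated FL/FL cells held 111 ± 10.1, 715 ± 53.2, 941 ± 84.9 and 458 ± 1.19 CPM, and the untreated WT/FL cells 109 ± 4.35, 799 ± 60.8, 912 ± 122 and 422 ± 36.8 CPM. The 3 control cultures thus rose to day 2 and fell back by day 4, and only the FL/FL cells after 4-OHT kept their level. On each of days 2, 3 and 4, both 4-OHT-treated FL/FL libraries lay above the 6 other libraries of the day for 8 of 8 IRG genes, and this held for 17.3%, 18.8% and 18.3% of all tested genes. On day 1 it held for 1 IRG gene, *Gm12250*, and for 2.63% of tested genes.

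**Figure D2:**
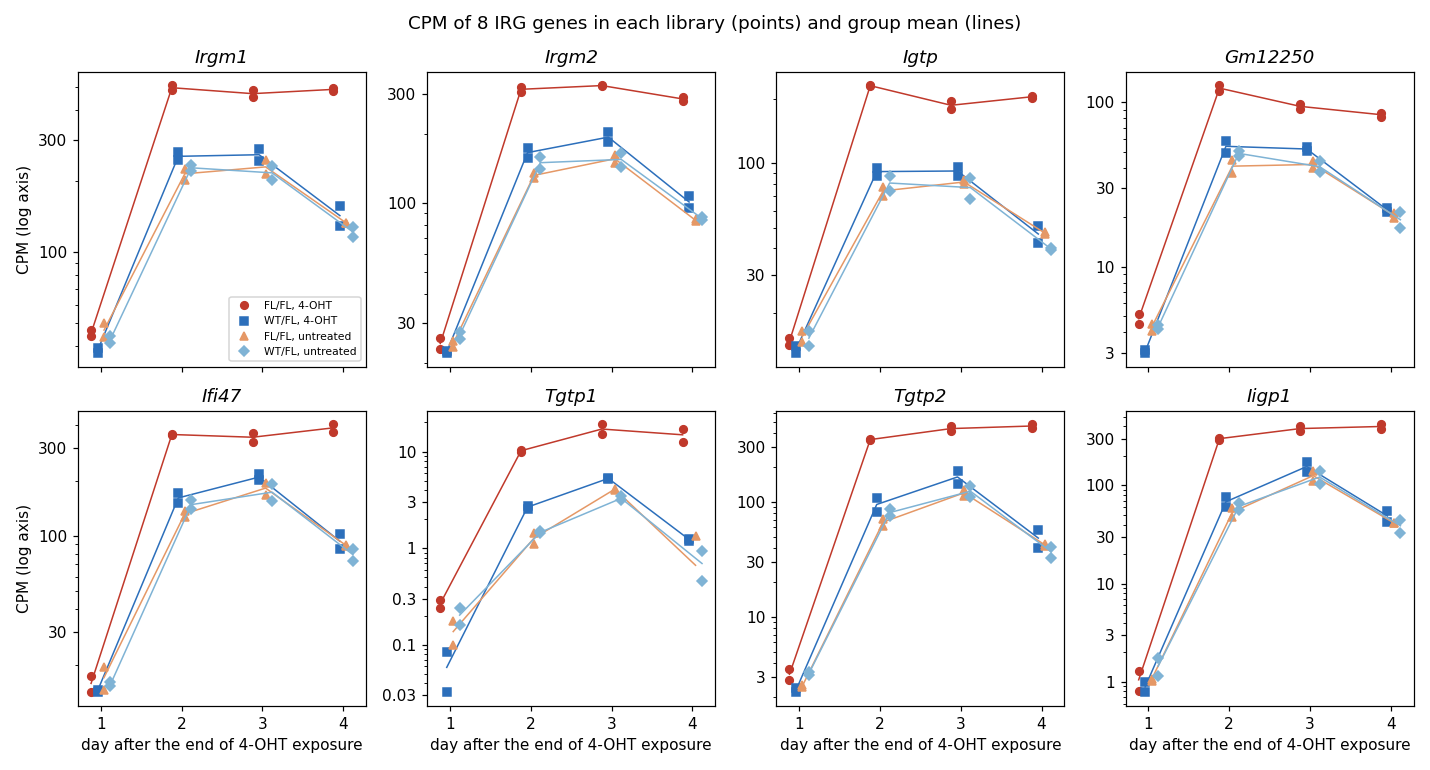
CPM of the 8 IRG genes (log axes, which differ between panels) against days since exposure to 4-OHT ended, with a point for each of the 2 libraries per group and lines through the group means. From day 2 the red circles of 4-OHT-treated FL/FL cells lie above the other 3 cultures in each panel. A single library with 0 counts of *Tgtp1*, in untreated FL/FL cells on day 4, has no point on the log axis and pulls the line of its group down.

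The comparison of the study set 4-OHT-treated FL/FL cells against 4-OHT-treated WT/FL cells on each day. A gene counted as called when its fold change exceeded 1.5 on the log2 scale in either direction and its p, adjusted by Benjamini-Hochberg, was under 0.01, and every adjusted p given here is from edgeR's quasi-likelihood test over all 15257 genes. The called IRG genes, all higher in FL/FL cells, numbered 0, 2, 0 and 7 on days 1 to 4, while 0.00655%, 0.498%, 0.485% and 1.65% of all tested genes were called higher on these days. Where the count was 0, DESeq2 also called 0, and 2 IRG genes on day 1 and 8 on day 3 had an unadjusted p under 0.05. Of all tested genes, 2.02% and 29.3% had such a p on these days. Without the minimum fold change, 7 IRG genes on day 2, 7 on day 3 and 8 on day 4 passed the adjusted p of 0.01 and were higher, against 5.69%, 6.69% and 9.84% of all tested genes. On the log2 scale, the median difference of the 8 genes was 0.24, 1.26, 0.94 and 2.09 on days 1 to 4, and that of all tested genes was -0.01, -0.01, -0.01 and -0.04. The count of 0 on day 3 became 1 when WT/FL library 2 of that day was left out, with *Tgtp2* at a log2 fold change of 1.59.

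Of the regulators, *Irgm1* (chr11:48752795-48763164, minus strand, GENCODE vM39 on GRCm39, as for the other positions of genes) was the most abundant IRG transcript per kilobase. On day 1 it was at 46.8 and 44.1 CPM in the 4-OHT-treated FL/FL libraries and at 37.3 and 39.3 CPM in the WT/FL libraries. By day 2 it reached 485 and 510 CPM in FL/FL cells and 265 and 245 CPM in WT/FL cells. The FL/FL libraries then held this level, with 487 and 453 CPM on day 3 and 497 and 483 CPM on day 4. WT/FL cells were at 243 and 275 CPM on day 3 and fell to 129 and 157 CPM on day 4. The genotype groups did not overlap on any day, which 2 libraries against 2 show by chance with a probability of 0.33 on a given day. The share of all genes without overlap was not counted. The log2 fold change between them was 0.25 ± 0.0944 (SE) on day 1, with an edgeR adjusted p of 1, and 0.96 ± 0.0907 on day 2, with an edgeR adjusted p of 4.08e-08. It was 1.78 ± 0.0928 on day 4, a 3.43-fold difference with an edgeR adjusted p of 3.17e-13.

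*Irgm2* (chr11:58090444-58113615, plus strand), which encodes another regulator, had the smallest genotype difference of the members on days 1, 2 and 4. It was at 25.6 and 23 CPM in FL/FL and 22 and 22.6 CPM in WT/FL libraries on day 1, so the groups lay close together. On day 2, FL/FL libraries held 307 and 322 CPM and WT/FL libraries 174 and 158 CPM. On day 4, they held 278 and 292 CPM against 95.2 and 107 CPM. Its day 4 difference of 1.49 ± 0.076 on the log2 scale (edgeR adjusted p = 2.64e-14) fell just short of the minimum of 1.5, so *Irgm2* was the IRG gene that was not called. With DESeq2 it was 1.51 and called. The gene overlaps *Igtp* on the same strand and shared 10.2% of its 31-base words with it, so estimated counts could pass between them.

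*Igtp* (chr11:58089840-58098417, plus strand), the third regulator, rose most of these 3 genes from day 1 to day 2 in 4-OHT-treated FL/FL cells, by 3.98 on the log2 scale against 3.69 for *Irgm2* and 3.45 for *Irgm1*. In the other 3 cultures the estimate of *Irgm2* was the highest of the 3, and these differences between genes were not tested. FL/FL libraries held 15.2 and 14.1 CPM on day 1 and 232 and 231 CPM on day 2. WT/FL libraries held 12.9 and 13.9 CPM on day 1 and 95.4 and 87.5 CPM on day 2. On day 4 the FL/FL libraries were at 207 and 202 CPM and the WT/FL libraries at 42.5 and 50.8 CPM, well apart. The log2 fold change was 1.34 ± 0.0997 on day 2 (edgeR adjusted p = 1.84e-09), 1.02 ± 0.0992 on day 3 (edgeR adjusted p = 8.74e-08) and 2.13 ± 0.103 on day 4 (edgeR adjusted p = 1.73e-13), the last a 4.39-fold difference.

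Among the effectors, *Iigp1* and the *Tgtp* pair had larger genotype differences than the 3 regulators on days 2 and 4, a comparison between members that was not tested. *Tgtp2* (chr11:48948021-48955033, minus strand), a T cell-specific GTPase gene by name that macrophages also use, was at 3.52 and 2.82 CPM in FL/FL and 2.39 and 2.2 CPM in WT/FL libraries on day 1. On day 2 it reached 348 and 350 CPM in FL/FL cells and 108 and 82 CPM in WT/FL cells. On day 4 the FL/FL libraries held 473 and 444 CPM, whereas the WT/FL libraries had fallen to 39.5 and 57.5 CPM. This 9.47-fold difference, 3.24 ± 0.186 on the log2 scale, had an edgeR adjusted p of 2.66e-10. The corresponding value was 1.88 ± 0.175 on day 2 (edgeR adjusted p = 5.96e-07) and 1.40 ± 0.172 on day 3 (edgeR adjusted p = 1.36e-05).

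*Tgtp1* (chr11:48876154-48884999, minus strand) is a near copy, and 81.6% of its 31-base words also occurred in *Tgtp2*. Its values are therefore uncertain, since the quantification could split reads between the copies. It received 0% to 7.89% of the counts of the pair in a library. On day 1, FL/FL libraries held 14 and 12 counts and WT/FL libraries 5 and 2. In untreated FL/FL cells of day 4, *Tgtp1* had 72 counts in library 1 and 0 in library 2, although *Tgtp2* had 2251 and 1489. After 4-OHT on day 4, it was at 17.1 and 12.7 CPM in FL/FL and at 1.2 and 1.25 CPM in WT/FL cells, a difference of 3.60 ± 0.536 on the log2 scale (edgeR adjusted p = 3.63e-05). On day 2 the value was 1.94 ± 0.496 and missed the threshold at an edgeR adjusted p of 0.0126. When both copies were summed to 1 row, the log2 fold change was 1.88 on day 2 (edgeR adjusted p = 5.20e-07) and 3.25 on day 4 (edgeR adjusted p = 2.19e-10), close to that of *Tgtp2* alone.

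*Gm12250* (chr11:58078565-58079838, plus strand) carries the RefSeq synonym *Irgb10*, an effector that also acts on bacterial membranes. GENCODE annotates the identifier of the table as a transcribed processed pseudogene, and each of its 31-base words also occurred in a further identifier of the same symbol, which was not analysed here. FL/FL libraries held 5.15 and 4.51 CPM on day 1 against 2.97 and 3.12 CPM in WT/FL libraries. This was the smallest p of the family on day 1 (log2 fold change 0.67 ± 0.136, unadjusted p = 4.98e-05), and it did not pass the correction (edgeR adjusted p = 0.152). Over the alternatives the adjusted p ran from 7.77e-06 without a filter on low counts, and 0.00803 with DESeq2, to 1, always under the minimum fold change. On day 2 the values were 117 and 127 CPM against 58.5 and 49.4 CPM. On day 4 they were 81.5 and 86.7 CPM against 21.5 and 22.8 CPM, with a log2 fold change of 1.93 ± 0.103 and an edgeR adjusted p of 1.23e-13.

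*Ifi47* (chr11:48967412-48987813, plus strand), the effector also named IRGD, whose promoter window held no motif match, rose with the others. It was at 17.4 and 14.2 CPM in FL/FL and 14.6 and 14.1 CPM in WT/FL libraries on day 1, where the groups overlapped. On day 2, FL/FL libraries held 355 and 358 CPM and WT/FL libraries 171 and 152 CPM. On day 4, the former were at 404 and 369 CPM and the latter at 85.2 and 102 CPM. The log2 fold change was 1.14 ± 0.128 on day 2 (edgeR adjusted p = 2.59e-06), 0.72 ± 0.127 on day 3 (edgeR adjusted p = 0.000398) and 2.05 ± 0.132 on day 4 (edgeR adjusted p = 3.37e-10).

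*Iigp1* (chr18:60506680-60525706, plus strand), the effector whose product IRGA6 coats parasite vacuoles, had the largest rise from day 1 to day 2 in each culture. Libraries of day 1 held only 62 and 40 counts in FL/FL and 46 and 62 counts in WT/FL cells after 4-OHT. Untreated cells held 47 to 75 counts. In CPM, *Iigp1* was then at 1.29 and 0.806 in 4-OHT-treated against 1.03 and 1.08 in untreated FL/FL cells. For WT/FL cells the values were 0.78 and 0.996 against 1.74 and 1.14 CPM, a change that was not called. On day 2 it was at 306 and 293 CPM in FL/FL and 75.6 and 61 CPM in WT/FL cells, the largest genotype difference of that day at 2.13 ± 0.194 on the log2 scale (edgeR adjusted p = 4.87e-07). On day 3 the FL/FL libraries held 402 and 359 CPM and the WT/FL libraries 138 and 173 CPM. On day 4, 419 and 380 CPM stood against 42.6 and 55.3 CPM, a difference of 3.03 ± 0.201 on the log2 scale (edgeR adjusted p = 2.22e-09).

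**Figure D3:**
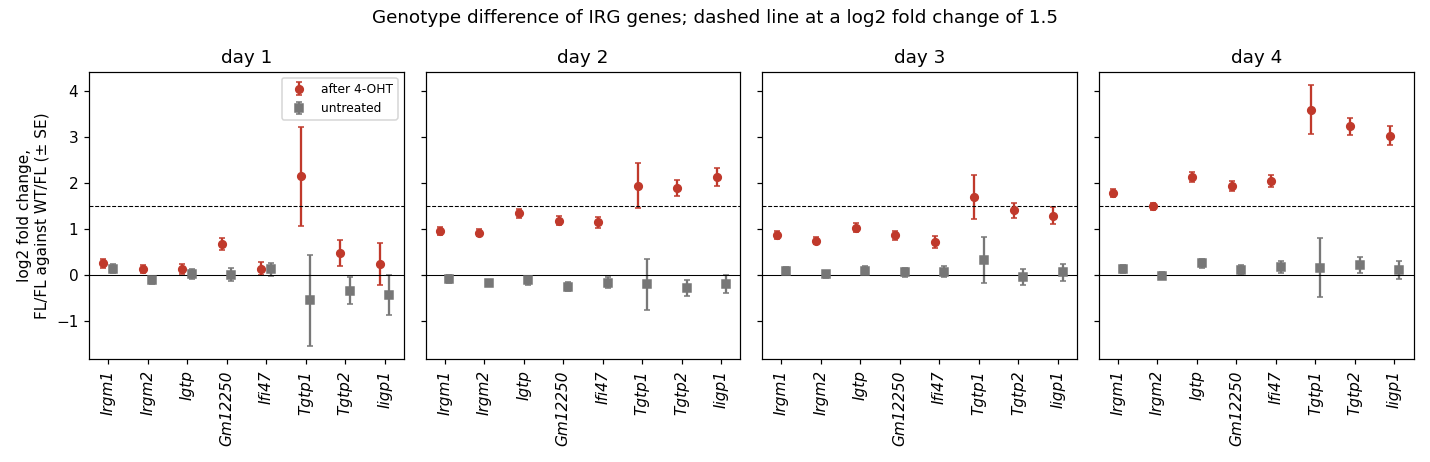
Log2 fold change of FL/FL against WT/FL cells for each IRG gene on days 1 to 4, after 4-OHT (red circles) and untreated (grey squares), with bars for the SE and a dashed line at 1.5. After 4-OHT the values range from 0.92 to 2.13 on day 2, dip on day 3 and range from 1.49 to 3.60 on day 4, and the untreated values stay near 0.

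Without 4-OHT, the genotypes lay close together. In untreated cells, 0 IRG genes were called on any day, and 0%, 0%, 0% and 0.00655% of all tested genes were called in either direction on days 1 to 4. At an unadjusted p below 0.05 there were 0, 2, 0 and 1 IRG genes in the edgeR test, and DESeq2 called 0 on each day. The shares of all tested genes under this p were 7.4%, 3.85%, 3.07% and 15.8%. The log2 fold changes ranged from -0.56 to 0.13, from -0.28 to -0.09, from -0.05 to 0.32 and from -0.02 to 0.25 on days 1 to 4. On day 2 *Gm12250* had the smallest p, at -0.26 ± 0.0992 on the log2 scale (edgeR adjusted p = 1). Leaving out FL/FL library 1 of day 4, which leaves the library with 0 counts of *Tgtp1* alone in its group, turned the count of 0 into 1.

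Exposure of FL/FL cells to 4-OHT, which uses the same treated libraries as above, was compared with untreated FL/FL cells. The called IRG genes numbered 0, 5, 3 and 8 on days 1 to 4, all higher, against 0%, 0.898%, 0.983% and 1.79% of all tested genes. On day 1, DESeq2 called 0 too, and 0 IRG genes were under 0.05 before adjustment, against 7% of all tested genes. On day 4 the log2 fold change was 1.88 ± 0.0933 for *Irgm1*, 1.76 ± 0.0769 for *Irgm2*, 2.12 ± 0.103 for *Igtp*, 3.43 ± 0.188 for *Tgtp2* and 3.26 ± 0.204 for *Iigp1*. The count of day 2 was 3 without library 2 of the untreated FL/FL cells of that day, and the count of day 3 was 1 without library 2 of the untreated FL/FL cells of day 3.

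In WT/FL cells, which can lose only the flanked allele, no IRG gene was called after 4-OHT by edgeR or DESeq2 on any day, and 0%, 0.0131%, 0.0524% and 0.0131% of all tested genes were called in either direction. There were 2, 0, 6 and 4 IRG genes with an unadjusted p under 0.05, against 2.48%, 3.47%, 8.4% and 7.08% of all tested genes. The estimates of all 8 were below 0 on day 1 and above 0 on days 2, 3 and 4. On the log2 scale the 8 genes had a median change of -0.36, 0.16, 0.34 and 0.24 on days 1 to 4. *Irgm2* on day 3 had the smallest adjusted p, with 185 and 204 CPM after 4-OHT against 144 and 166 CPM untreated, a change of 0.33 ± 0.0744 on the log2 scale (edgeR adjusted p = 0.0357).

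The difference between the 4-OHT effects of the 2 genotypes was tested directly as an interaction. It was called for 0, 2, 0 and 8 IRG genes on days 1 to 4, all with the larger effect in FL/FL cells, and 0%, 0.492%, 0.36% and 1.23% of all tested genes were called in this direction on these days. For the 0 of days 1 and 3, DESeq2 also called 0, and 2 and 7 IRG genes were under 0.05 before adjustment. Of all tested genes, 3.57% and 20.7% were under 0.05 on these days. On day 2 the called genes were *Iigp1*, with a difference of 2.33 ± 0.271 on the log2 scale (edgeR adjusted p = 2.26e-05), and *Tgtp2*, with 2.15 ± 0.246 (edgeR adjusted p = 1.73e-05). On day 4 the difference ran from 1.52 ± 0.107 for *Irgm2* (edgeR adjusted p = 7.43e-11) to 3.45 ± 0.837 for *Tgtp1* (edgeR adjusted p = 0.00702).

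The rise from day 1 to day 2 was present in every culture. All 8 IRG genes were called higher on day 2 than on day 1 in each of the 4 cultures, against 4.37% of tested genes in 4-OHT-treated FL/FL, 3.32% in 4-OHT-treated WT/FL, 3.34% in untreated FL/FL and 3.35% in untreated WT/FL cells. The median log2 change was 4.58 in 4-OHT-treated FL/FL cells, 3.82 in 4-OHT-treated WT/FL cells, 3.08 in untreated FL/FL cells and 3.04 in untreated WT/FL cells. *Iigp1* rose most, with a log2 change of 8.16 ± 0.294 in 4-OHT-treated FL/FL cells and 5.40 in untreated WT/FL cells. *Irgm1* rose least in 4-OHT-treated FL/FL cells, by 3.45 ± 0.1. The macrophage markers also rose over this interval, from a sum of 15024 to 17032 CPM over the libraries of day 1 to 26245 to 33691 CPM on day 2. Most of this sum was *Lyz2*. After 4-OHT, its means in FL/FL and WT/FL cells were 12096 and 12368 CPM on day 1 and 18747 and 24408 CPM on day 2. In both 4-OHT-treated cultures the mean of each marker was higher on day 2. The part of these markers in the change was not tested.

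From day 2 to day 3 no IRG gene was called in any culture, with 0 called by DESeq2. *Tgtp1* in untreated FL/FL cells passed the minimum fold change, at 1.68 ± 0.532 on the log2 scale, but not the adjusted p (edgeR adjusted p = 0.0141). At an adjusted p below 0.01 alone, 2 IRG genes rose in 4-OHT-treated WT/FL, 4 in untreated FL/FL and 2 in untreated WT/FL cells, against 17.7%, 18.7% and 17.1% of all tested genes. *Tgtp2* and *Iigp1* were the genes that rose in each of these cultures. In 4-OHT-treated FL/FL cells 1 IRG gene fell, *Gm12250* by 0.37 on the log2 scale (edgeR adjusted p = 0.00274), against 18% of tested genes.

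From day 3 to day 4 the cultures parted. Each of the 8 IRG genes fell at an adjusted p below 0.01 in 4-OHT-treated WT/FL, untreated FL/FL and untreated WT/FL cells, where 5.93%, 7.18% and 6.39% of all tested genes fell. The median log2 change was -1.20, -1.03 and -1.11 in these cultures. In 4-OHT-treated FL/FL cells 0 of the 8 genes fell at this threshold, against 5.7% of tested genes, and the median was 0.07. There, 1 IRG gene was at an unadjusted p below 0.05 in edgeR, against 27.5% of all tested genes, and DESeq2 called 0. *Iigp1*, for example, changed by -1.67 in 4-OHT-treated WT/FL cells (edgeR adjusted p = 7.55e-06) and had a value of 0.07 ± 0.184 in 4-OHT-treated FL/FL cells (edgeR adjusted p = 0.864).

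**Figure D4:**
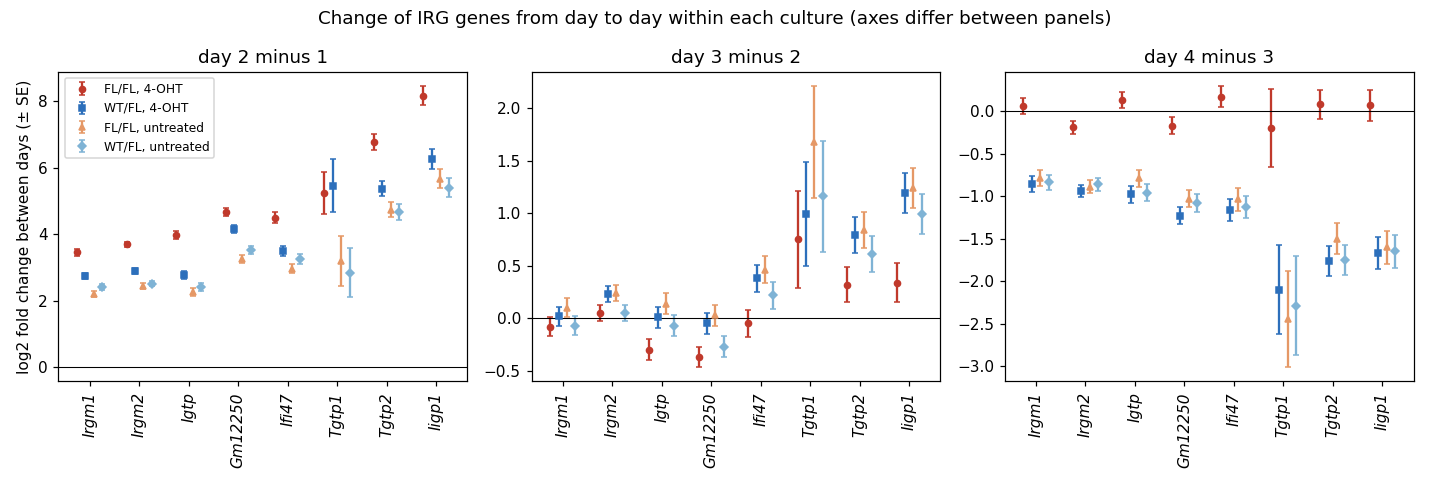
Log2 change of each IRG gene between successive days within the 4 cultures, with bars for the SE and axes that differ between panels. All values of the first panel are above 0, and in the last panel the 4-OHT-treated FL/FL cells (red circles) lie near 0 with a median of 0.07 while the medians of the other cultures lie between -1.20 and -1.03.

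The change of the genotype difference between days was tested in the same fit. From day 1 to day 2 it grew at an adjusted p below 0.01 for 4 IRG genes, *Irgm1*, *Irgm2*, *Igtp* and *Ifi47*, against 2.67% of all tested genes. *Igtp* gained 1.21 ± 0.15 on the log2 scale (edgeR adjusted p = 1.64e-05), and *Iigp1*, with few counts on day 1, had a value of 1.90 ± 0.507 (edgeR adjusted p = 0.0354). From day 2 to day 3, 0 IRG genes passed, against 0.905% of tested genes in either direction. All 8 estimates were below 0 (median -0.32), with 4 at an unadjusted p below 0.05, against 14.8% of all tested genes, and 0 called by DESeq2. From day 3 to day 4 the difference grew for 7 IRG genes, all but *Tgtp1*, against 1.67% of tested genes. Of these, 2 also passed the minimum fold change, against 0.21% of tested genes: *Tgtp2* with 1.84 ± 0.243 (edgeR adjusted p = 8.07e-05) and *Iigp1* with 1.74 ± 0.265 (edgeR adjusted p = 0.000371).

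Divided by the length of the canonical transcript, the levels of the members could be ordered. On day 1 after 4-OHT, WT/FL cells held 18.3 CPM per kilobase of *Irgm1*, 8.42 of *Ifi47*, 6.4 of *Irgm2*, 5.85 of *Igtp*, 2.39 of *Gm12250*, 0.817 of *Tgtp2*, 0.292 of *Iigp1* and 0.0203 of *Tgtp1*, and no neighbours in this order overlapped. The regulators and *Ifi47* thus stood above the other effectors at this time. On day 4, FL/FL cells held 235 CPM per kilobase of *Irgm1*, 226 of *Ifi47*, 163 of *Tgtp2*, 131 of *Iigp1*, 89.6 of *Igtp*, 81.6 of *Irgm2*, 66 of *Gm12250* and 5.16 of *Tgtp1*. *Irgm1* and *Ifi47* overlapped there, and the other neighbours did not. *Tgtp2* and *Iigp1* thus stood above *Igtp* and *Irgm2*. In 4-OHT-treated WT/FL cells they stood above *Igtp* on day 3, at 58.6 and 51.2 against 40.3 CPM per kilobase, and the means of both untreated cultures had this order on that day too. On day 4 the means of 4-OHT-treated WT/FL cells were 17.3 for *Tgtp2*, which overlapped *Igtp*, 16.1 for *Iigp1* and 20.4 CPM per kilobase for *Igtp*.

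Over the 16 group means of log2 CPM, members correlated with each other with Pearson's r between 0.907 (*Tgtp1* and *Iigp1*) and 0.998 (*Ifi47* and *Tgtp2*). These points share libraries, culture days and the normalization, and no p is given. Among the 5 genes outside the family whose group means were most like the mean of the members were *Mndal*, *Ifih1*, *Ifit2* and *Adar*, each with r = 0.999 over the 16 means. After 4-OHT on day 4, the log2 fold change between genotypes was 1.63 for *Mndal*, 1.41 for *Ifih1*, 3.38 for *Ifit2* and 1.02 for *Adar*.

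Genes that act with the IRGs were counted in the same comparison of 4-OHT-treated genotypes, for which the shares of all genes are given above. The guanylate-binding proteins (GBPs), interferon-inducible GTPases that also target pathogen vacuoles, were called higher in 0, 5, 1 and 9 of 11 genes on days 1 to 4, with median log2 fold changes of 0.21, 1.72, 1.05 and 2.23. For the 0 of day 1, DESeq2 called 0 and 0 genes were under 0.05 before adjustment, against 2.02% of all tested genes. On day 4 DESeq2 called 8 of the 11. The genes called on day 2 were *Gbp2*, *Gbp3*, *Gbp4*, *Gbp5* and *Gbp6*, and the gene called on day 3 was *Gbp11*. *Gbp4* was at 31.3 ± 1.97 CPM in FL/FL and 2.71 ± 0.659 CPM in WT/FL cells on day 4, which is 3.54 ± 0.311 on the log2 scale (edgeR adjusted p = 4.53e-08). *Gbp6* was at 321 ± 0.967 and 56.6 ± 9.42 CPM (log2 fold change 2.51 ± 0.199, edgeR adjusted p = 2.31e-08). *Gbp2*, *Gbp3*, *Gbp5*, *Gbp8*, *Gbp9* and *Gbp11* were also called on day 4, with log2 fold changes from 1.58 for *Gbp9* to 3.73 for *Gbp11*. The extremes of the list rested on few reads, with 56 and 81 counts of *Gbp10* in FL/FL against 0 and 6 in WT/FL libraries, which was called, and 14 and 5 counts of *Gbp2b* against 3 and 14, which was not. *Gbp7* differed by 1.29 ± 0.124 on the log2 scale (edgeR adjusted p = 6.83e-08), under the minimum.

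Of 15 tested genes of interferon ligands, receptors and signalling, 0, 1, 0 and 5 were called higher on days 1 to 4. DESeq2 called 4 on day 4. For the 0 of days 1 and 3, DESeq2 called 0 too, and 2 and 12 genes were under 0.05 before adjustment. The shares of all tested genes were 2.02% and 29.3%. *Socs1*, a feedback inhibitor of JAK kinases, was called on day 2 and day 4, with 6.33 ± 1.07 CPM in FL/FL and 1.81 ± 0.0869 CPM in WT/FL cells on day 4 (log2 fold change 1.80 ± 0.333, edgeR adjusted p = 0.00016). *Stat2* (log2 fold change 1.99 ± 0.122, edgeR adjusted p = 8.97e-11) and *Usp18*, an inhibitor at the type I IFN receptor (2.72 ± 0.123, edgeR adjusted p = 4.93e-13), joined it on day 4. *Ifnb1*, the ligand IFN-β, was also called (edgeR adjusted p = 0.0062), with 12 and 14 counts in FL/FL and 0 and 0 in WT/FL libraries. This is at least 5.12-fold higher against a floor of 3 counts per library. Over all 32 libraries *Ifnb1* held at most 20 counts. Receptor genes moved the other way or little: *Ifnar1*, with the lowest value of the list, differed by -0.37 ± 0.0619 on the log2 scale on day 4 (edgeR adjusted p = 2.62e-05) and *Ifngr1* by -0.23 ± 0.0638 (edgeR adjusted p = 0.00551). *Irf9*, whose product takes part in binding to ISRE elements, had 0.26 ± 0.0513 (edgeR adjusted p = 0.000267).

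Further IRG genes of the annotation were tested for 8 of 15 listed symbols, and 2 were called, on day 4. DESeq2 called 3 on that day, and the median log2 fold change of the 8 genes was 1.38. At an edgeR adjusted p below 0.01 alone, 4, 3 and 6 were higher on days 2 to 4, against 5.69%, 6.69% and 9.84% of all tested genes. On day 4, 1 was lower at this adjusted p. On days 1 to 3, where edgeR and DESeq2 called 0, 0, 7 and 4 of the 8 genes were under 0.05 before adjustment. The shares of all tested genes were 2.02%, 23% and 29.3%. *Iigp1c*, which shared 31-base words with *Iigp1*, was at 155 ± 11.6 CPM in FL/FL and 45.5 ± 5.1 CPM in WT/FL cells (log2 fold change 1.77 ± 0.15, edgeR adjusted p = 2.34e-08). *Gm4841* had counts of 33 and 12 in FL/FL libraries and of 1 and 3 in WT/FL libraries, and was thus at least 5.6-fold higher against the same floor. *Irgq*, a distant relative, was lower, at 22.8 ± 2.44 against 30.3 ± 1.62 CPM (log2 fold change -0.41 ± 0.0965, edgeR adjusted p = 0.00161). *Irgc*, known from testis, held 0 and 3 counts in FL/FL and none in WT/FL libraries of day 4, too few to compare.

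Genes of the machinery that guides IRG proteins to vacuoles were not called on any day by edgeR or DESeq2. Before adjustment, 0, 3, 5 and 4 of 10 autophagy genes and 0, 3, 3 and 3 of 5 ligases and adaptors were under 0.05 on days 1 to 4. Of all tested genes, 2.02%, 23%, 29.3% and 38.8% were under 0.05 on these days. Of the 10 genes of the ubiquitin-like conjugation system of autophagy, 1 was higher and 2 were lower in FL/FL cells at an edgeR adjusted p below 0.01 on day 4, all under the minimum fold change. These were *Atg3* (log2 fold change 0.27 ± 0.0739, edgeR adjusted p = 0.00536), *Map1lc3b* (-0.20 ± 0.0564, edgeR adjusted p = 0.00789) and *Gabarapl1* (-0.60 ± 0.11, edgeR adjusted p = 0.000219). Of the 5 ubiquitin ligases and adaptors found at coated vacuoles, *Trim21* alone passed the adjusted p on day 4, at 89.2 ± 4.27 CPM in FL/FL and 41.3 ± 0.126 CPM in WT/FL cells (log2 fold change 1.11 ± 0.0707, edgeR adjusted p = 1.40e-12). *Calcoco1* was lowest, at -0.28 ± 0.0878 on the log2 scale (edgeR adjusted p = 0.0172). Among the 7 macrophage markers, *Fcgr1*, the high-affinity Fc receptor, was called on days 2 and 4, with 1128 ± 17.9 against 235 ± 18.1 CPM on day 4, and the median log2 fold change of the list was -0.07 on that day. On day 4, 2 markers were lower at an edgeR adjusted p below 0.01, both under the minimum fold change. These were *Itgam* (log2 fold change -0.35 ± 0.0668, edgeR adjusted p = 0.000149) and *Csf1r* (-0.28 ± 0.057, edgeR adjusted p = 0.000403). On day 3, 2 markers were higher and 3 lower at this adjusted p.

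**Figure D5:**
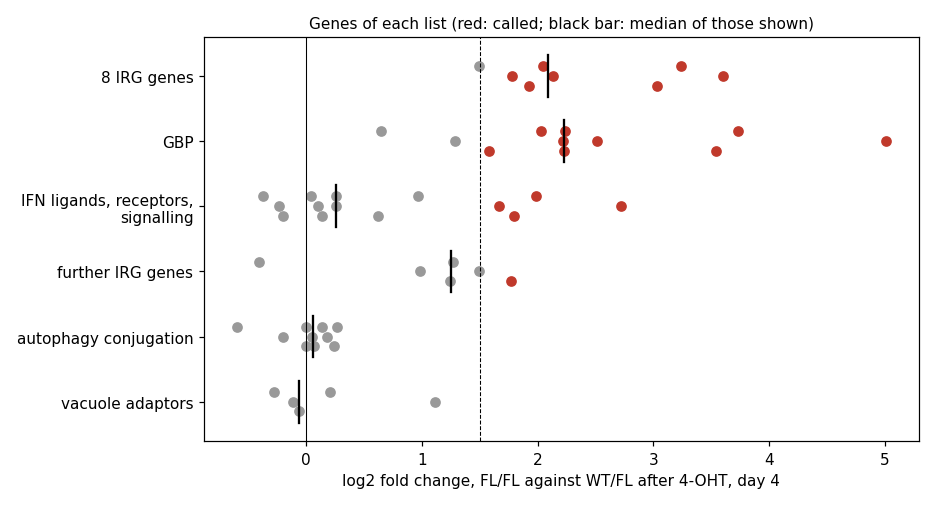
Log2 fold change of 4-OHT-treated FL/FL against WT/FL cells on day 4 for the 8 IRG genes and 5 lists of related genes, with called genes in red, the median of the points as a black bar and a dashed line at 1.5. The IRG genes and the GBPs lie mostly beyond 1.5. The autophagy and adaptor genes lie around 0 apart from *Trim21* at 1.11 and *Gabarapl1* at -0.60. The 3 genes with at most 3 counts in both WT/FL libraries have no point.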

How the data were processed

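RNA of 32 libraries of BMDMs was analysed, 2 for each of 16 combinations of genotype, 4-OHT treatment and day, grouped by the sample labels. The authors used JE for demultiplexing, FastQC for read quality, Salmon with GRCm39 for transcript abundance and tximport for gene totals. The deposited values are estimated counts, stored as whole numbers and not normalized, and the length correction of tximport was not used here. The annotation release is not given in the sources used here. Totals ran from 35120505 to 63760884. Of 54281 identifiers, 51048 were matched to GENCODE vM39, and unmatched identifiers made up 0.32% of the counts.

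The quasi-likelihood test of edgeR 4.0.16 was run in R 4.3.3 (robust glmQLFit, then glmQLFTest) after TMM scaling on a model of 16 group means, with 16 residual degrees of freedom and a common biological coefficient of variation of 0.0912. The filter used a minimum count of 10. The SE is the absolute log2 fold change divided by the square root of F. Log2 CPM used a prior count of 2 and fold changes a prior count of 0.125. Folds against libraries with at most 3 counts are lower bounds that cover counting error only. The test was checked on simulated counts.

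The members and lists were chosen with earlier results of these data known. Named genes were the members, the list genes called after 4-OHT, the highest and lowest gene of each list on day 4, *Trex1*, and the 5 genes most like the members in their group means. The other list genes named with values (*Ifngr1*, *Irf9*, *Gbp7*, *Irgq*, *Trim21* and the autophagy genes) and *Gm12185* were chosen after their values were seen. So were the macrophage markers *Fcgr1*, *Itgam*, *Csf1r* and *Lyz2*. A gene that the rule named is counted in its list but not reported here by name. Shared sequence was measured as 31-base words of annotated transcripts. Promoter windows of the members other than *Iigp1*, which was left out, were taken from RefSeq (GRCm38.p6) and matched exactly to chromosome 11 of GRCm39. As alternatives, DESeq2 1.42.0, factors by RLE or the upper quartile, other thresholds and filters, fits of 16 or 4 libraries, a prior count of 2, *Tgtp1* and *Tgtp2* summed, the interaction, and leaving out each library were tried.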

Additional observations from a re-analysis of the deposited data

Results flagged for a closer look

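The effect of 4-OHT differed between FL/FL and WT/FL cells by the edgeR interaction test (adjusted p below 0.01 and a log2 difference above 1.5) for 2 IRG genes on day 2 and for all 8 on day 4. On day 2 the difference was 2.33 for *Iigp1* and 2.15 for *Tgtp2* on the log2 scale. On day 4 it was 1.65 for *Irgm1*, 1.52 for *Irgm2*, 1.88 for *Igtp*, 1.83 for *Gm12250*, 1.88 for *Ifi47*, 3.45 for *Tgtp1*, 3.03 for *Tgtp2* and 2.92 for *Iigp1*. The value of *Tgtp1* rests in part on a pair of untreated FL/FL libraries with 72 and 0 counts.

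The genotype difference after 4-OHT changed from day 3 to day 4 beyond the same thresholds for *Iigp1*, by 1.74, and for *Tgtp2*, by 1.84 on the log2 scale. In both genes the FL/FL level was held while the WT/FL level fell.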

How the results depend on the processing

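No paired analysis was possible because the labels carry no replicate number. The 7 IRG genes called after 4-OHT on day 4 and the 2 on day 2 stayed within 1.5 times these counts under each other normalization, filter, tool or fit tried. Without the minimum fold change, counts at adjusted p below 0.05 and below 0.01 were 8 and 7 on day 2 and 8 and 7 on day 3, where the main count was 0. On day 3, 1 IRG gene was called without a filter on low counts, in the fit of the 16 treated libraries and in that of the 4 libraries of the day, and 0 to 1 when a library was left out. The 4-OHT effect in FL/FL cells gave 8 and 8 on day 2 and 8 and 8 on day 3 without the minimum fold change, 3 to 5 on day 2 and 1 to 2 on day 3 when a library was left out. In WT/FL cells it gave 1 on day 3 at adjusted p below 0.05. The untreated genotype comparison of day 4 gave 0 to 1 with a library left out. The change of the genotype difference from day 1 to 2 gave 6 and 4 without the minimum fold change, 1 without a filter, 1 with DESeq2 and 0 to 1 with a library left out, and that from day 3 to 4 gave 7 and 7. Between days within a culture, the counts without the minimum fold change from day 2 to 3 were 2 and 1 in 4-OHT-treated FL/FL, 4 and 2 in 4-OHT-treated WT/FL, 5 and 4 in untreated FL/FL (1 without a filter) and 3 and 2 in untreated WT/FL cells. In these cultures, 49.8% to 52.2% of all tested genes had an unadjusted edgeR p below 0.05 over this interval. The counted changes of IRG genes were rises except those in 4-OHT-treated FL/FL cells and *Gm12250* in untreated WT/FL cells, which were falls. From day 3 to 4 they were 8 and 8 in the 3 control cultures, where leaving out a library gave 1 to 2, 0 to 3 and 1 to 2 calls with the minimum fold change, in the order 4-OHT-treated WT/FL, untreated FL/FL and untreated WT/FL. With a library left out, the day 1 log2 fold change ran from -0.02 to 0.27 for *Ifi47* and from -0.14 to 0.54 for *Iigp1*, with the negative values without FL/FL library 1. *Irgm2* on day 4 was called with RLE factors, with DESeq2, in the fit of 4 libraries and in the interaction. The cause of these changes was not tested. Depth limits *Tgtp1* and *Iigp1* on day 1, with 2 to 75 counts per library.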
